A study of Bos taurus with 64 samples.

Results

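The genes MYOD1, MYOG and MYF6, which encode 3 of the myogenic regulatory factors, were followed in 2 muscles of cows slaughtered after stress or with limited stress. They made up 4 of the 5449 gene names and custom probe sets of the array, with 8 probes of 13285. There was 1 probe for each gene name, and the custom set Target1086 had 5 probes, 1 of which shared bases with the MYF6 probe. The probes were taken by the gene names of the array files, and the genes themselves were chosen with earlier results of these data known. All 8 probes were well above background on 32 of 32 arrays in each muscle.

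The myogenic regulatory factors are transcription factors of the basic helix-loop-helix family that bind DNA together with E proteins and switch on genes of the muscle programme. MYOD1 commits cells to the muscle lineage, MYOG drives the differentiation of myoblasts into fibres, and MYF6, also called MRF4, is the member most associated with mature fibres. In adult muscle they are also known to respond to innervation and activity, and the fourth member, MYF5, marks satellite cells and myoblasts.

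Samples of the Longissimus thoracis (LT), a muscle of the back, and of the Semitendinosus (ST), a muscle of the hind limb, came from 32 Normand cows and were hybridised to 64 single-colour Agilent arrays. The 16 cows labelled moderated stress, called stressed cows here, were isolated during transport in a lorry and led for 30 minutes through a labyrinth on an unfamiliar farm, and the 16 others were handled with limited stress. In each stress group, 8 cows received the control diet, which was rich in lipids and is labelled Lipid-rich, and 8 cows received the same diet with vitamin E and plant extracts rich in polyphenols, labelled Lipid VitE PERP and called the EP diet. All cows were finished for 101 d, were 4.5 ± 0.1 years old at slaughter, and were sampled in both muscles within 15 minutes of slaughter. The samples were pieces of whole muscle, in which fewer cells of a type and less RNA per cell cannot be told apart.

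Levels are given as the log2 signal minus the 75th percentile of the array, so that 0 is the signal of that percentile. This percentile ranged from 2470 to 4202 units, 71.4 to 80.9% of the spots were well above background, and at most 1 spot of an array was saturated. Each of the 9 slides held 1 muscle, so that muscle and slide differed together, and slide 9 of the ST held 6 stressed cows and 1 cow with limited stress. The arrays of cow321, a stressed cow on the control diet, stood apart from the others. Their median correlation with the other 31 arrays of the muscle was the lowest of all 32 in the LT (0.965) and in the ST (0.968), and results that rest on this cow are given with and without it. The skeletal muscle markers fixed for the check of the tissue (ACTA1, CKM, DES, MYH1, MYH2, MYH7, TTN and MB) were tested for 6 of 8 genes, and their summed level lay between 9.26 and 9.78 on the log2 scale on all arrays.

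The named probes and the custom probes that overlap them are shown because every measurement of these genes rests on such oligonucleotides of 60 bases. Only the first 30 bases are given, and capitals mark the bases that a named probe shares with its custom probe. The custom sets Target1110 and Target1111 share bases with the probes of MYOD1 and MYOG in the same way and are used as a second reading of these genes.
MYF6: tcacGTTACGTTAATATTTAGGAAGCCAGA
Target1086: GTTACGTTAATATTTAGGAAGCCAGACCCA
MYOG: ggcaggggCTCCTGGGGTGATTAATTTTGT
Target1111: CTCCTGGGGTGATTAATTTTGTTAACTAAG
MYOD1: tTTGTATGTTTATACGGCAGGCAGGCGAGC
Target1110: TTGTATGTTTATACGGCAGGCAGGCGAGCC
The shared stretch was 56 bases for MYF6, 52 for MYOG and 59 for MYOD1. The array files place the MYF6 probe at chr5:12276105-12276164 on the plus strand and the MYOD1 probe at chr15:33492194-33492253 on the minus strand of the build HGSC Btau_3.1, and they give no position for the MYOG probe or the custom probes. The probes begin at base 798 (MYF6), 1322 (MYOG) and 1796 (MYOD1) of their transcripts per the array files, and whether these bases are coding was not determined. Custom probes that overlap a named probe measure nearly the same bases, so they repeat a measurement rather than add an independent one. The other 4 probes of each custom set have different sequences.

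MYOG and MYOD1 were lower and MYF6 was higher in the LT of stressed cows. In the ST, MYOG was lower with stress, MYOD1 did not pass the threshold, and the mean of MYF6 was nearly the same in both stress groups. Of the 4 sets of member probes, all 4 were differentially expressed in the LT and 1 in the ST, against 3.64% of all 4309 transcripts tested in the LT and 3.61% of the 4244 tested in the ST. Calls were made per gene name or custom set (a transcript, below) from limma, and needed 80% or more of its probes past an adjusted p of 0.1 with 1 sign. MYF6 and Target1086 read the same gene and count as 1 result.

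**Figure D1:**
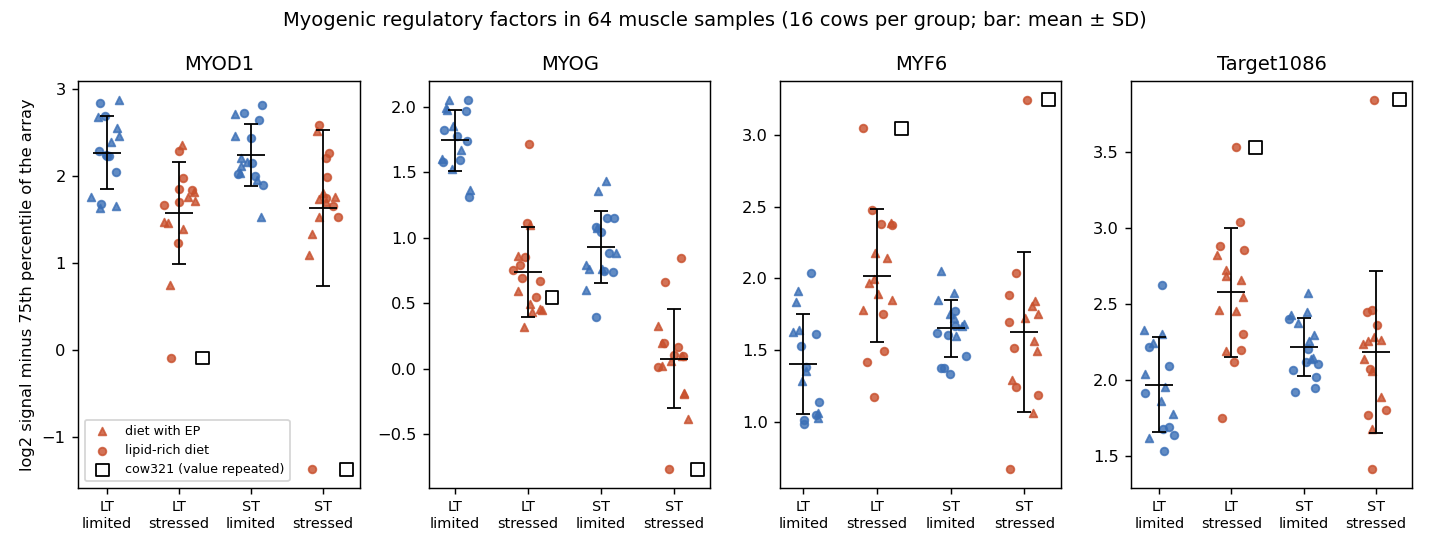
Level of each member in each sample (log2 signal minus the 75th percentile of the array, vertical axes on different ranges), by muscle and stress group, with 16 cows per group. Circles are cows on the control diet and triangles cows on the EP diet, bars are the mean ± SD, and the open square repeats the value of cow321. For MYOG nearly all stressed cows lie below the cows with limited stress of the same muscle, and for MYF6 the stressed cows of the LT are shifted upward.

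MYOG had a lowest, median and highest level of 1.31, 1.76 and 2.06 in the LT of cows with limited stress, and of 0.32, 0.68 and 1.71 in stressed cows. Thus 15 of 16 stressed cows lay below every cow with limited stress, and the last one lay within their range. In the ST the levels were 0.39, 0.89 and 1.44 with limited stress and -0.77, 0.10 and 0.85 with stress. Here 14 of 16 stressed cows lay below every cow with limited stress, and the groups overlapped by the other two. By limma this was a level 2.01-fold lower in the LT, with a 95% interval of the log2 difference from -1.21 to -0.80 (adjusted p = 3.73e-08). For the ST the level was 1.80-fold lower, at -0.85 with an interval from -1.09 to -0.61 (adjusted p = 1.18e-05, limma). Among all transcripts, 1.51% were called lower in the LT and 2.12% in the ST. All 5 probes of Target1111 also passed the threshold, with differences from -1.01 to -0.98 in the LT and from -0.89 to -0.83 in the ST. Within single slides the difference ranged from -1.17 to -0.91 on the 4 LT slides and from -1.07 to -0.63 on the 5 ST slides, below 0 on every one. Without cow321 it was -0.98 and -0.78, and without slide 9 it was -0.67 in the ST (adjusted p = 0.00363, limma).

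MYOD1 had levels of 1.63, 2.26 and 2.88 (lowest, median and highest) in the LT with limited stress and of -0.09, 1.71 and 2.35 with stress. The ranges overlapped widely: 6 of 16 stressed cows lay below every cow with limited stress, and 2 lay above the limited stress median. In the ST the levels were 1.53, 2.15 and 2.81 with limited stress and -1.37, 1.74 and 2.58 with stress, with 5 stressed cows below every other cow and 4 above the limited stress median. The lowest value of each muscle was that of cow321, and the next lowest stressed cows were at 0.75 in the LT and 1.09 in the ST. In the LT the log2 difference was -0.69 with a 95% interval from -1.06 to -0.32 (adjusted p = 0.0265, limma). In the ST it was -0.61, with an interval from -1.10 to -0.12 and an adjusted p of 0.181 by limma. Without cow321 the differences were -0.57 (adjusted p = 0.0218) and -0.40 (adjusted p = 0.120, limma). When both muscles were fitted with the cow as a random replicate block, the ST value of -0.61 had an adjusted p of 0.0789 by limma and passed the threshold. With the slide as a block the ST difference was -0.47 (adjusted p = 0.536, limma), and 4 of the 5 ST slides had a difference below 0, the exception being slide 4 with 1 stressed cow (0.61). In Target1110 all 5 probes passed the threshold in the LT (-0.71 to -0.55) and none in the ST (-0.63 to -0.25, adjusted p from 0.166 to 0.227, limma).

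MYF6 went the other way in the LT. Its lowest, median and highest levels were 0.98, 1.37 and 2.03 with limited stress and 1.17, 1.98 and 3.05 with stress. All but 1 of the 16 stressed cows exceeded the median of the cows with limited stress and 7 exceeded every one of them, so the groups overlapped but were shifted. The mean difference was 0.62 (SE 0.145, adjusted p = 0.0110, limma), a level 1.53-fold higher, where 2.14% of all transcripts were called higher. The 5 probes of Target1086 gave differences from 0.56 to 0.64, each past the threshold (adjusted p from 0.00354 to 0.00799), also the 4 probes that share no stretch of bases with the named probe. The difference was above 0 on each of the 4 LT slides (0.20 to 0.92) and was 0.54 without cow321, which had the highest level (adjusted p = 0.0148, limma). When the arrays were scaled by the median of their control features, which lowered the LT stress differences of all probes by a median of 0.18, the difference was 0.44 with an adjusted p of 0.411, no longer past the threshold.

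In the ST the levels of MYF6 were 1.33, 1.67 and 2.05 with limited stress and 0.67, 1.63 and 3.25 with stress. The stressed cows were the more spread out of the 2 groups, with an SD of 0.559 against 0.198, cow321 included. On the EP diet, which cow321 did not receive, the SD was 0.274 with stress and 0.147 with limited stress. On the control diet it was 0.766 and 0.162. The stressed cows lay on both sides: 5 were below every cow with limited stress and 1 was above all of them (cow321). Of the 16, 8 were above the limited stress median. The mean difference was -0.02 with a 95% interval from -0.32 to 0.27 (adjusted p = 0.947, limma), and from -0.05 to -0.01 for the probes of Target1086. Without cow321 it was -0.14 (adjusted p = 0.511, limma). Its sign depended on the scaling, at 0.07 with the control features and 0.12 without scaling.

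**Figure D2:**
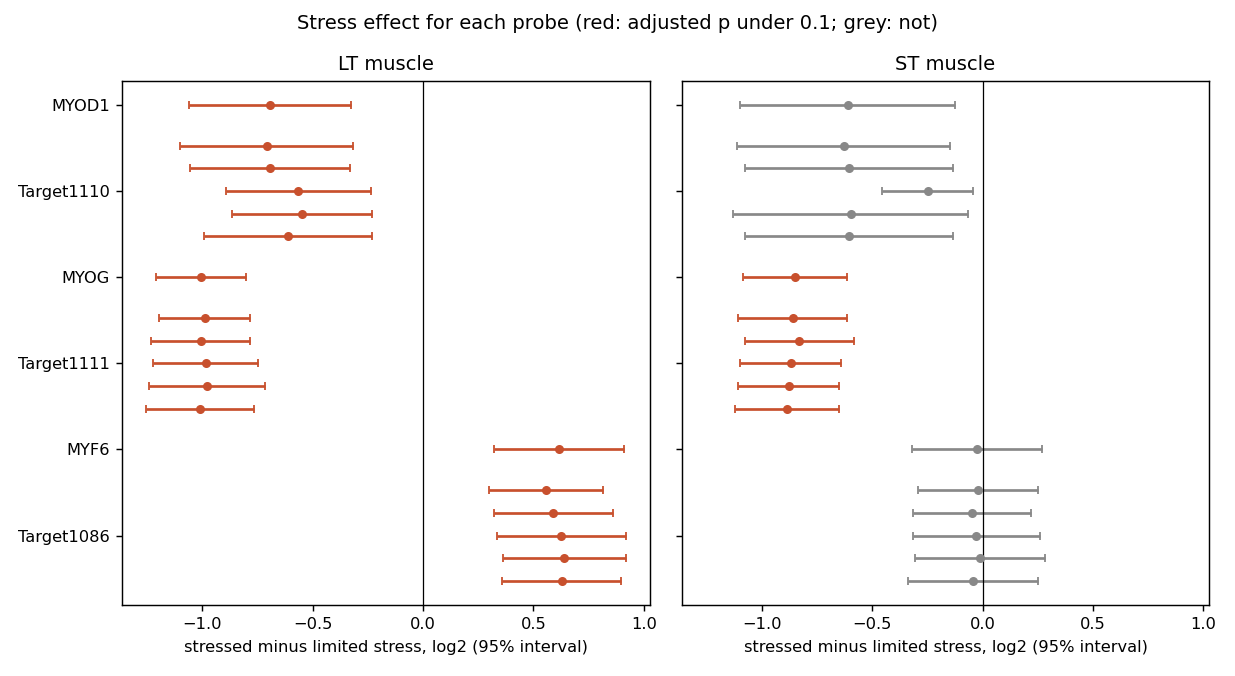
Log2 difference of stressed cows from cows with limited stress for each probe of the members and of the custom sets Target1110 and Target1111, in the LT and the ST, with the 95% interval of the fit (limma, not adjusted for the number of probes). Probes in red had an adjusted p under 0.1. Probes of 1 gene lie close together, and those of MYF6 and Target1086 are near 0.6 in the LT and near 0 in the ST.

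The stress difference of MYF6 was larger in the LT than in the ST by 0.64. In the fit of the 64 arrays without a block, its SE was 0.208 and its adjusted p 0.999, and 0 transcripts were called for such a difference (0% of 4228), with 280 of 10252 probes at an unadjusted p under 0.05 in limma. Once the cow entered as a replicate block, so that the paired muscles of a cow were compared, the difference of 0.64 had an SE of 0.116 and an adjusted p of 0.0057, and Target1086 also had 0.64 (highest adjusted p of its probes 0.00695, limma). In this paired fit 6 of 4228 transcripts were called, or 0.142%, and 2 of these 6 were MYF6 and Target1086. Calls with the larger difference in the LT made up 0.118%. With the slide as a further block the difference was 0.51 for MYF6 (adjusted p = 0.228) and 0.50 for Target1086 (adjusted p = 0.270, limma), not past the threshold. Without cow321 the paired value was 0.68 (adjusted p = 0.00149), and without slide 9 of the ST it was 0.65 (adjusted p = 0.0631, limma). For MYOD1 and MYOG the corresponding differences were -0.08 and -0.15, with adjusted p of 0.938 and 0.794 in the paired fit and intervals in the unpaired fit that span 0.

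Between muscles, MYOG was higher in the LT than in the ST of the same cow in 32 of 32 cows. The LT minus ST difference had a lowest, median and highest value of 0.31, 0.87 and 1.29 in cows with limited stress and of 0.17, 0.63 and 1.31 in stressed cows. The SD of this difference over cows was 0.250 with limited stress and 0.314 with stress. Its mean was 0.74, or 1.67-fold. The fit without a block, which took the paired muscles of a cow as independent arrays, gave an SE of 0.0769 (adjusted p = 6.15e-12, limma). With the slide as a random block the mean was 0.74 (adjusted p = 4.02e-08, limma). Here and below, muscle comparisons come from the fit without a block unless a block or the paired fit is named. Between the muscles 51% of the 4228 transcripts were called, 21.5% higher and 29.5% lower in the LT. Since no slide held both muscles, the slides could only be a random term here.

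MYOD1 did not differ between the muscles beyond its spread, with a mean difference of -0.02 (95% interval from -0.32 to 0.29, adjusted p = 0.941, limma) and 11 of 16 limited stress cows and 6 of 16 stressed cows higher in the LT. Its sign turned under other scalings, to 0.17 with the control features and 0.11 without scaling. The probes of Target1110 disagreed here: 1 of the 5 was lower in the LT by 0.42 (adjusted p = 0.000244, limma) and the other 4 had differences from -0.03 to 0.19 that did not pass the threshold. This probe also had the smallest stress difference of the set in the ST.

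For MYF6 the order of the muscles differed by stress group. In cows with limited stress the LT minus ST difference had a lowest, median and highest value of -0.70, -0.28 and 0.37, and 4 of 16 cows were higher in the LT. In stressed cows the values were -0.20, 0.46 and 0.93, 12 of 16 cows were higher in the LT, and all 16 lay above the limited stress median. The mean was -0.25 with limited stress (SE 0.147, adjusted p = 0.188, limma) and 0.39 with stress (SE 0.147, adjusted p = 0.0312). With the cow as a replicate block, limma gave the limited stress value of -0.25 an adjusted p of 0.0130, past the threshold, so that paired muscles differed in both stress groups and in opposite directions. Of all transcripts, 15.5% were called higher in the LT of stressed cows, and 22.1% were called lower in the LT with limited stress, or 30.2% in the paired fit. With the control features as the scaling, which moved the limited stress difference of all probes by a median of 0.32, the values were 0.08 and 0.44 and neither passed.

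**Figure D3:**
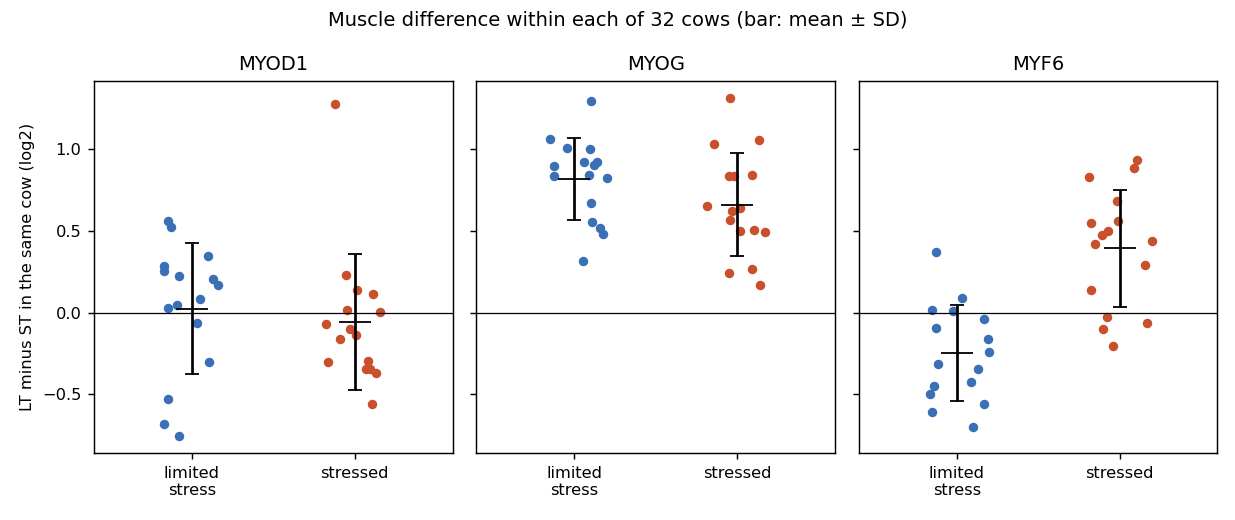
Level in the LT minus the level in the ST of the same cow (log2) for MYOD1, MYOG and MYF6, by stress group, 1 point per cow, with bars for the mean ± SD of 16 cows. All 32 points of MYOG lie above 0, and the points of MYF6 lie mostly below 0 with limited stress and mostly above 0 with stress.

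The diet had no effect that passed the threshold on any member. The EP minus control difference was 0.00 and -0.04 for MYOD1, -0.14 and -0.06 for MYOG, and 0.07 and 0.07 for MYF6 in the LT and the ST, with adjusted p of 0.968 or more (limma). No transcript at all was called for diet (0% in either muscle), while 404 of 10439 LT probes and 534 of 10303 ST probes had an unadjusted p under 0.05 with limma. The stress difference was then compared within each diet, with 8 cows a group. MYOG was lower with stress on both diets: by limma the difference was -0.84 on the control diet and -1.17 on the EP diet in the LT (adjusted p = 0.000612 and 8.95e-06), and -0.73 and -0.97 in the ST (adjusted p = 0.0186 and 0.00068). Of all transcripts, those called lower were 0.255% and 0.348% in the LT and 1.58% and 0.212% in the ST, in the same order of diets. With a slide block, the ST value on the control diet was -0.50, which did not pass (adjusted p = 0.364, limma). With the control features as the scaling 3 of these 4 values did not pass: -0.87 in the LT and -0.69 in the ST on the control diet, and -0.82 in the ST on the EP diet. MYF6 in the LT had 0.67 on the control diet and 0.56 on the EP diet, and MYOD1 had -0.72 and -0.66, none past the threshold in these smaller groups (adjusted p from 0.157 to 0.405, limma). The stress by diet differences of the members did not pass the threshold either (adjusted p of 0.972 or more).

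Differences between members within an array do not depend on a scaling factor for the whole array, so they were also examined. Only changes of such a difference are read here, since the levels of different probes are not comparable. In the LT, MYF6 minus MYOG had a median of -0.41 with limited stress (range -0.78 to 0.72) and of 1.39 with stress (range -0.54 to 2.50). Of the stressed cows, 14 of 16 lay above every cow with limited stress, and the means differed by 1.62. In the ST the medians were 0.63 (range 0.31 to 1.27) and 1.40 (range 0.50 to 4.01), 10 of 16 stressed cows lay above every cow with limited stress, and the means differed by 0.83. MYF6 minus MYOD1 rose from a median of -0.86 to 0.39 in the LT, with all 16 stressed cows above the limited stress median, and had medians of -0.43 and -0.19 in the ST. MYOD1 minus MYOG differed less between stress groups, by 0.31 on average for the LT and by 0.24 for the ST. These values are descriptions and were not tested.

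**Figure D4:**
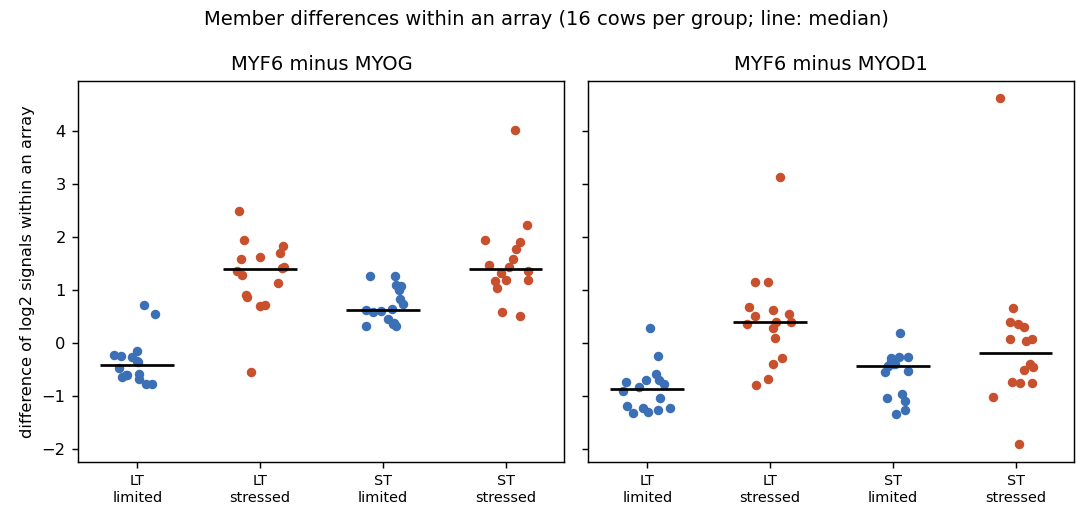
Difference of log2 signals between 2 members on the same array, MYF6 minus MYOG and MYF6 minus MYOD1, by muscle and stress group, with 16 cows per group and a line at the median. In the LT 14 of 16 stressed cows lie above every cow with limited stress for MYF6 minus MYOG. The highest points of the stressed ST group belong to cow321.

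Relations across cows were computed within each stress group of each muscle, 24 in all, with two-sided permutation tests of 100000 resamples and p adjusted over the 24. The level of each gene in the LT had a positive r with its level in the ST of the same cow, in both stress groups. In stressed cows, r was 0.926 for MYOD1 (permutation p = 1e-05, the smallest that these permutations can give, adjusted p = 6e-05). It was 0.769 for MYF6 (p = 0.00071, adjusted p = 0.00281) and 0.624 for MYOG (p = 0.0133, adjusted p = 0.032, permutation). By rank, rho was 0.829, 0.694 and 0.438 in the same order. Its adjusted permutation p was 0.00048, 0.0108 and 0.142, so MYOG did not pass by rho. Without the 2 cows farthest from the median, r was 0.806, 0.609 and 0.300, so the relation of MYOG rests on those cows. With the control features as the scaling, r was 0.448 for MYF6 and 0.206 for MYOG and neither passed. Without cow321, r was 0.852, 0.611 and 0.678. In cows with limited stress, r was 0.481 for MYOD1, 0.530 for MYOG and 0.544 for MYF6 (adjusted p of the permutation test from 0.0585 to 0.0946). By rho MYF6 passed (adjusted permutation p = 0.0565), while MYOD1 and MYOG did not (adjusted permutation p = 0.142 and 0.12). Target1086, the second reading of MYF6, had r = 0.378 and did not pass (adjusted permutation p = 0.182). With group means and slides removed, r in stressed cows was 0.880 for MYOD1, 0.751 for MYF6 and 0.385 for MYOG.

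Between members, MYOD1 and MYOG went together in the LT of cows with limited stress (r = 0.680, p = 0.00475, adjusted p = 0.0127 by permutation). The rho of this pair was 0.712 (adjusted permutation p = 0.0096), and r was 0.559 without the 2 farthest cows and 0.677 with slides removed. In the ST of the same cows, r was 0.109. In the LT of stressed cows, r was 0.432 (adjusted permutation p = 0.137), with rho = 0.609 (adjusted permutation p = 0.037) and r = 0.493 without cow321. In the ST of stressed cows, r was 0.627 (adjusted permutation p = 0.0395), and 0.249 without cow321. The rho there was 0.459 and did not pass (adjusted permutation p = 0.13). MYOD1 and MYF6 had r = -0.828 in the ST of stressed cows (adjusted permutation p = 0.00648), with rho = -0.532 (adjusted permutation p = 0.0773). However, r was -0.243 without the 2 farthest cows. It was -0.482 without cow321 and no longer passed (adjusted permutation p = 0.119), so the size of r rests on that cow. The rho without cow321 is not given. With the control features as the scaling, r of this pair was -0.379. MYOD1 and MYF6 in the LT of stressed cows had r = -0.502, and -0.106 without cow321. MYOG and MYF6 had r from -0.456 to 0.064 in the 4 groups, none past the threshold. In the LT with limited stress their r of -0.049 turned to 0.672 without the 2 farthest cows. With the control features as the scaling it was 0.653 there and 0.768 in the ST with limited stress. That scaling takes the same value from both genes of an array, and the control medians lay near background (1.73 to 6.36 units). The part of this in the r values was not tested. MYF6 and Target1086 had r from 0.831 to 0.987, as 2 readings of 1 gene.

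**Figure D5:**
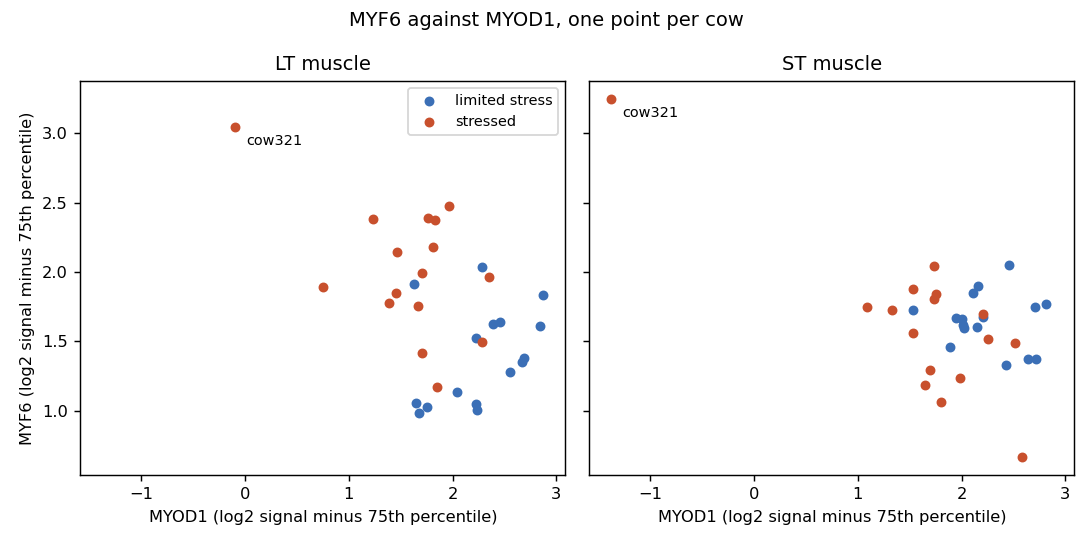
MYF6 against MYOD1 in the LT and the ST (log2 signal minus the 75th percentile on both axes), 1 point per cow, with blue for limited stress and red for stress. The point of cow321 lies alone at the lowest MYOD1 and the highest MYF6 in both muscles.

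The transcripts whose pattern across cows was most like that of each member were ranked by the smaller of the LT and ST correlations after the means of the 4 stress and diet groups were removed, over 32 arrays of each muscle. For each gene the custom set with shared bases came first, with r of at least 0.967 in both muscles. After Target1086, MYF6 was most like PSMA1, a subunit of the proteasome, with r of 0.661 and 0.683 for its custom set and 0.626 and 0.758 for its named probe. CDKN1A, an inhibitor of the cell cycle, came next with 0.606 and 0.740, and its custom set had 0.592 and 0.730. Without cow321 both PSMA1 transcripts held ranks 2 and 3, and CDKN1A moved to rank 28. After Target1110, MYOD1 was most like AMPD1, the AMP deaminase of skeletal muscle (0.705 and 0.741 for the custom set), TCTEL1, a light chain of dynein (0.743 and 0.702), the named probe of AMPD1, and WDFY2. Without cow321, AMPD1 fell to ranks 969 and 1284, WDFY2 to rank 78, and TCTEL1 stayed at rank 3 with 0.585 and 0.497. After Target1111, MYOG was most like MYOD1 (0.563 and 0.526), METTL7A (0.494 and 0.580), the MYOD1 set Target1110, and MRPL28, a protein of the mitochondrial ribosome (0.470 and 0.568). Without cow321 MYOD1 fell to rank 382, with an ST correlation of 0.105.

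The fourth factor, MYF5, lies next to MYF6 in the gene order of the RefSeq table and was measured by a named probe and by the sets Target1085 and Target1822, which hold the same 5 sequences. Its named probe was well above background on 23 arrays of the LT and 15 of the ST, so its values are less firm than those of the members. With stress its log2 difference was -0.63 for the LT (SE 0.262, adjusted p = 0.217) and -0.47 for the ST (SE 0.219, adjusted p = 0.271, limma), not past the threshold, and the custom sets had means from -0.56 to -0.35. Between muscles MYF5 was higher in the LT by 0.69 (SE 0.174, adjusted p = 0.000711, limma), with 0.62 and 0.64 for the custom sets. Of the fixed list of relatives and upstream regulators of these factors, 9 of 30 genes were tested, with 12 transcripts. Of these 1 was called for stress, lower in the ST, where 2.12% of all transcripts were: MSTN, the growth inhibitor myostatin, had a difference of -0.79 (SE 0.238, adjusted p = 0.0754, limma), and in the muscle comparison it had -1.15, lower in the LT. The median log2 stress difference over the 12 transcripts of this list was -0.25 for the LT and -0.37 for the ST, beside -0.05 and -0.06 over all transcripts. Here and below, such a median counts transcripts and not genes. In this list MYF5 entered with its named probe and both custom sets, and FST with its named probe and a custom set. All of these were lower with stress in both muscles, and a median over genes was not computed.

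Of the partners and inhibitors of the factors, 8 of 26 genes were tested, with 11 transcripts. Of these 2 were called higher and 1 lower in the LT with stress, where 2.14% and 1.51% of all transcripts were. In the ST 2 were called higher, where 1.48% of all transcripts were. HES6, which promotes myogenic differentiation in part by binding HES1, was higher with stress, with 1.23 for the LT and 1.39 for the ST (SE 0.223 and 0.260, adjusted p = 0.000526 and 0.0012, limma). HEYL, a transcriptional repressor that acts downstream of Notch, was higher in the LT with 0.62 (adjusted p = 0.00247, limma). Its ST value was 0.52 (adjusted p = 0.115, limma). DLL4, a Notch ligand, was lower in the LT with -0.87 (adjusted p = 0.00108, limma) and had -0.08 in the ST. ID1, which sequesters E proteins, was called in the ST by its named probe (0.50, adjusted p = 0.0989, limma), while its set of 5 probes had 0.49 and did not pass (highest adjusted p 0.166). Between muscles the largest called differences were those of HEYL, higher in the LT by 1.21, and HES1, with -0.92. The list had a median of -0.11 for the LT and -0.08 for the ST.

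Of the muscle targets of these factors, 24 of 37 genes were tested, with 43 transcripts, and 2 were called higher and 0 lower with stress in each muscle, where 2.14% (LT) and 1.48% (ST) of all transcripts were called higher. They were the same in both muscles. GADD45A, a growth arrest gene, was higher with 1.16 for the LT and 1.20 for the ST (adjusted p = 1.58e-05 and 8.32e-06, limma), and LRP4, a receptor of the neuromuscular junction, by 1.01 and 0.59 (adjusted p = 0.00166 and 0.0754). The list had a median of 0.02 for the LT and 0.04 for the ST. Between muscles 12 of the 43 transcripts were called higher and 17 lower in the LT, beside 21.5% and 29.5% of all transcripts, led by MYBPH, a myosin-binding protein, with 4.47 (SE 0.324), and CHRNA1, a subunit of the acetylcholine receptor, with 1.33. Of the satellite cell list, 8 of 16 genes were tested, and 0 of 13 transcripts were called for stress in either muscle. Of all transcripts, 3.64% were called in the LT and 3.61% in the ST, and 0 of 13 lies near these shares. The list gene SDC4 was not among those tested, and the paper reports it as differentially expressed with stress in both muscles. The list had a median of -0.15 for the LT and -0.12 for the ST, beside -0.05 and -0.06 over all transcripts. Its stress differences ranged from -0.63 (MYF5) to 0.10 (CAV1) in the LT and from -0.47 (MYF5) to 0.04 (CAV1) in the ST. PAX7, the transcription factor that defines satellite cells, was chosen after its values were seen and had -0.01 in the LT and -0.12 in the ST. Between muscles 7 transcripts of this list were called higher in the LT, beside 21.5% of all transcripts, 3 of them of MYF5, and SDC3, a syndecan, had 0.37. The 2 called lower were both of CDH15, a cadherin of muscle cells, with -0.28 for the named probe and -0.24 for the custom set.

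None of the transcripts of slow fibres, fast fibres, fat, blood (1 tested in the LT, 0 in the ST), endothelium, fibroblasts, immune cells or nerve was called for stress in the LT or the ST. Each of these lists had at most 10 tested transcripts. Of all transcripts, 3.64% were called in the LT and 3.61% in the ST, so a count of 0 lies near these shares. The fat transcripts had a median stress difference of -0.23 for the LT and -0.63 for the ST. Between muscles 0 of 5 were called, where 51% of all transcripts were. Of the slow fibre markers, 7 of 10 transcripts were called higher in the LT than in the ST, where 21.5% of all transcripts were, and 1 was called lower (the named probe of MYH7, -0.10, adjusted p = 0.0164, limma). Of the fast fibre markers, 7 of 10 were called lower, where 29.5% of all transcripts were. The summed slow fibre level had medians of 8.88 (LT) and 8.50 (ST) with limited stress, and of 8.93 and 8.74 with stress. The summed fat level ranged from -1.50 to 3.18 over all arrays. The part of fibre types and of fat in the muscle differences of MYOG and MYF6 was not tested.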

How the data were processed

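RNA from 64 muscle samples was hybridised to single-colour Agilent arrays. The deposited intensities are the processed signals that the authors obtained with Feature Extraction 10.1.1.1, per the file headers, and the deposited value table held the same values. Log2 signals were centred on the 75th percentile of each array. Control features were left out and all spots of 1 probe averaged. Probes well above background on at least 11 arrays of a muscle were tested with limma 3.58.1 (R 4.3.3), with Benjamini-Hochberg adjustment over all probes and a threshold of 0.1. Some of the fits were run on simulated data with known changes. The simulated arrays had no cow or slide effects, so the handling of such effects by the blocks was not checked.

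Groups came from the sample labels. Cow numbers in the labels pair the muscles: the deviations of the 2 samples of a cow correlated at 0.107 to 0.712 (median 0.413), over 0.1 for 32 of 32 cows. Levels over a custom set are means of its probes. Alternatives were no scaling, the median of the 536 control features of an array, normexp with quantile, no filter or a filter on all arrays, the value table, leaving out uneven or outlying spots, and slide, scan day and cow blocks. Those without cow321 or slide 9 were chosen after seeing the data. The members and gene lists were chosen with earlier results of these data known. Genes named beside the members were the closest 5 by correlation and, from each list, all called for stress and the 2 with the largest called muscle differences.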

Additional observations from a re-analysis of the deposited data

Results flagged for a closer look

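In 3 of the groups of 8 cows, 1 sample lay far from the others by Dixon's test, and each was cow321 among stressed cows on the control diet. Its MYOD1 level was -0.0948 in the LT, where the next was 1.23 and the median 1.77. In the ST its MYOD1 level was -1.37, where the next was 1.53 and the median 1.86. Its Target1086 level in the ST was 3.85, where the next was 2.46 and the median 2.22. The test covered 32 groups, and chance alone places about 1 group in 20 past its limit.

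The stress difference was larger in the LT than in the ST by 0.64 for MYF6 (SE 0.116, adjusted p = 0.0057, limma with the cow as a replicate block) and by 0.64 for Target1086 (SE 0.115, highest adjusted p 0.00695, limma). This was a test of the difference itself, in the paired fit. In the fit without a block the difference did not pass (adjusted p = 0.999 for both, limma). It also did not pass with the cow and the slide both as blocks.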

How the results depend on the processing

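With the control feature median as the scaling, values no longer past the threshold were the LT stress difference of MYF6 (0.44) and Target1086 (0.43), their muscle difference in stressed cows (0.44 and 0.44), and MYOG within diets (-0.87 in the LT and -0.69 in the ST on the control diet, -0.82 in the ST on the EP diet). Signs turned for MYF6 and Target1086 in the stress difference of the ST (0.0708 and 0.0660) and the muscle difference with limited stress (0.0775 and 0.0774). They also turned for MYOD1 between muscles (0.17), for the ST diet (0.0299) and for stress by diet in the LT (-0.25), and for MYOG with diet (0.0582 and 0.0128). Without scaling, signs turned for MYOD1 between muscles (0.11), in stressed cows (0.0137) and for the LT diet (-0.0015), and for MYF6 and Target1086 in the ST, with stress (0.12 and 0.12) and diet (-0.0312 and -0.0677). Normexp with quantile turned MYOD1 for the LT diet (-0.0075) and between muscles with limited stress (-0.0321). The scan day block turned MYOD1 for the LT diet (-0.00011) and for stress by diet in the ST (-0.0054). None of these turned values passed the threshold. MYOG in the ST on the control diet was -0.59 without scaling, -0.53 with scan day and -0.50 with slide as a block, not past it.

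With the cow as a random replicate block, the stress difference of MYOD1 in the ST (-0.61), which compares different cows, passed. In the paired fits, where the cow was a replicate block, the stress by muscle difference (0.64 for MYF6 and 0.64 for Target1086) and the muscle difference with limited stress (-0.25 and -0.25) passed. Without cow321 the stress by muscle difference was 0.68 for both with this block and the muscle difference with limited stress was -0.25 for both, past the threshold with and without the block, and Target1086 passed at 0.68 also without it. Without slide 9 the blocked values were 0.65 and 0.66. With the cow and the slide both as blocks, the stress by muscle difference did not pass for MYF6 or Target1086. In the ST on the control diet, MYF6 was -0.0627 and Target1086 -0.0516 without cow321, turned from a positive value.

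The number of transcripts called for stress in the LT was 32 with the control feature median and 240 with the cow as a random block, against 157. In the ST it was 38 with the control feature median, 87 without scaling, 99 with normexp, 69 with scan day, 52 with slide and 98 without slide 9, against 153. On the control diet in the ST it was 9, 42, 39, 13 and 10 under the first 5 of these, 59 without a filter and 37 without cow321, against 106. The control feature median gave 16 on the control diet and 11 on the EP diet in the LT, 18 on the EP diet in the ST, 1371 between muscles and 264 between muscles in stressed cows. Scan day and slide blocks each gave 2 for diet in the ST. The stress by muscle count was 6 with the cow block, 10 with it and 3 without it when cow321 was left out, and 8 with it when slide 9 was.

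Of the relations across cows, the control feature median turned the sign of MYOG with MYF6 (0.65 in the LT with limited stress, 0.36 in the LT and 0.19 in the ST with stress) and of MYOD1 with MYF6 (0.58 in the ST with limited stress, 0.0621 in the LT with stress). MYOG with MYF6 in the ST turned to -0.15 with normexp and -0.14 with slides removed for limited stress, and to 0.0193 without cow321 for stress. The causes were not tested. The control features lay near background, with a median signal of 1.73 to 6.36 units over the arrays. Precision is bounded by the number of arrays.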
